A study of Rattus norvegicus with 10 samples.

Results

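The genes described here encode proteins of the contractile machinery, calcium pump and energy supply of fast skeletal muscle fibres, and their signal was followed across RNA of the trigeminal ganglion (TG). The 10 genes were chosen by name, and a probe belonged to one when its transcript accession carried that symbol in the RefSeq gene table. All 10 had a probe, with 11 probes among the 30367 on the array and 10 of its 27436 features, a feature being 1 gene symbol or 1 probe without a symbol. The rats of the oral ulcerative mucositis (OUM) model, labelled Stomatitis, were male Wistar rats of 8 weeks in which a filter paper with 50% acetic acid lay on the labial fornix of the lower incisors for 30 s under anesthesia, for which the methods name pentobarbital or a mixture of butorphanol, medetomidine and midazolam. The naive rats, labelled Control, were age-matched male Wistar rats that had the anesthesia alone. Rats of both groups were perfused with cold saline on day 2, and their whole TGs were taken from both sides. RNA of 5 OUM rats and 5 naive rats was measured on 1-colour Agilent rat arrays, with 1 array per rat. Mandibular neurons, which supply the ulcer, are one portion of the whole TG. Fewer cells of a type and less RNA per cell cannot be told apart in such samples.

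Skeletal muscle shortens when myosin motors of the thick filament pull on actin of the thin filament. The troponin complex on the thin filament opens this contact when calcium leaves the sarcoplasmic reticulum, and a calcium pump ends the contraction by returning it. The TG holds cell bodies of sensory neurons, their glia, vessels and connective tissue but no skeletal muscle fibres, while jaw muscles lie around the nerve branches that leave it, and motor axons of the trigeminal nerve pass beside it.

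All values are log2 of the processed signal relative to the 75th percentile of the same array, so a gene at 0 is as bright as that percentile and dimmer genes are negative. The 75th percentile was 2617.4 to 2939.4 signal units, and 69.0% to 75.6% of an array's probes stood well above background. The arrays lay on 2 slides: slide 2 held OUM arrays 4 and 5 and naive array 4, and slide 1 held the other 7. The 13 measured genes of ganglion neurons, such as *Uchl1*, a neuronal deubiquitinating enzyme, were well above background on all 10 arrays, and the list mean per array lay between 4.05 and 4.35 in the OUM model and between 4.17 and 4.32 in naive rats. Pairs of arrays correlated at 0.9881 to 0.9979 (Pearson's r over features, which are not independent replicates). The mean of the pituitary list, which includes the hormone genes *Pomc* and *Gh1*, differed between arrays more than that of any other list, with a value of 2.11 on OUM array 2 and -2.25 on naive array 2 relative to its 10-array mean.

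The regions before the start sites of 4 genes are shown because these genes stand for the patterns described further on: *Atp2a1* and *Ckm* had their highest signal on 1 naive array, *Acta1* followed the slide, and *Myh4* was near the limit of detection. Each holds 250 bases before and 50 bases after the start in RefSeq's GRCr8 assembly, 5′ to 3′ on the strand of the gene. Capitals mark letters that match an E-box (CANNTG on either strand), the site class of myogenic basic helix-loop-helix factors, a MEF2 box or a CArG box, the site class of serum response factor.
*Atp2a1*, chr1:190475361-190475660, minus strand: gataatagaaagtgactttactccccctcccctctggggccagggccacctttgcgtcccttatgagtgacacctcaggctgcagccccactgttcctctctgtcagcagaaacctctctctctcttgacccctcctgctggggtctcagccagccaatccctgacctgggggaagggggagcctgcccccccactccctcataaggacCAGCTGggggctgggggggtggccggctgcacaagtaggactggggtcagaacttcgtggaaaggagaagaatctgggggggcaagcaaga
*Ckm*, chr1:88189211-88189510, plus strand: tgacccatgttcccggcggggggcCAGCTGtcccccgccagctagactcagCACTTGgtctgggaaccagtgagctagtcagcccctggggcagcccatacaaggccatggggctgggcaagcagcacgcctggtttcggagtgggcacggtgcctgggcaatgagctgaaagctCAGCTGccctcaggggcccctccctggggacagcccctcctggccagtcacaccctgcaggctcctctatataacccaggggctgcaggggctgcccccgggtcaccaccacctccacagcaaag
*Acta1*, chr19:68784145-68784444, minus strand: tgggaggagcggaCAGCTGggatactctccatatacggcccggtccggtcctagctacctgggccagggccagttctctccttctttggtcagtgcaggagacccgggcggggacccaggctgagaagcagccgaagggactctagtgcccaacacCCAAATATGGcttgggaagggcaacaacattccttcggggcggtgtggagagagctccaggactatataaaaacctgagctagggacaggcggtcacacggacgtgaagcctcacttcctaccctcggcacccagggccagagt
*Myh4*, chr10:52421898-52422197, plus strand: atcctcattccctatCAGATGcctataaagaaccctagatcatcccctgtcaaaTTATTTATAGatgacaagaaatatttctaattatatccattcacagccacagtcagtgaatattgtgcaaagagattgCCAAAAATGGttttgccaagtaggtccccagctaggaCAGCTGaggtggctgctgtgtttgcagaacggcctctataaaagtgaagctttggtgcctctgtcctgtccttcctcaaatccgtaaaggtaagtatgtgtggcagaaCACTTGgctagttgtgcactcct
An E-box was found in 8 of the 10 promoters of the 9 genes with a promoter in the table (7 of these genes), against 72.1% of all 33469 promoters. A MEF2 box was found in 3 of the 10 promoters (*Myh1*, *Myh4* and *Myl1*), against 3.29% of all promoters, and a CArG box in 2 (*Acta1* and *Myh4*), against 1.64%. TATAA on either strand, which lies within some MEF2 boxes, was found in 7 of the 10 promoters, against 26.2%. A match is only a match of letters, and *Tnnt3* had no entry in the table.

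The muscle genes split by detection in the TG. Well above background on all 10 arrays were 5 genes: *Acta1*, *Tnnt3*, *Tnni2*, *Tnnc2* and *Ckm*. *Atp2a1* was so on 9 arrays, with naive array 4 as the exception, *Myh4* on 6 (3 OUM and 3 naive) and *Myh1* on 3 (1 OUM and 2 naive). *Myh2*, measured by 2 probes, and *Myl1* were well above background on 0 of 10 arrays. Per array, 7, 6, 7, 7 and 7 of the 10 genes were well above background on OUM arrays 1 to 5, against 8, 8, 7, 5 and 6 on naive arrays 1 to 5. Of the 10 genes, 6 met the condition for testing, which was detection on every array of at least 1 group, and the other 4 did not.

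None of the 6 tested muscle genes differed between OUM and naive TGs beyond the spread between rats. Of these 6 genes, 0 passed an adjusted p of 0.05 (limma over 19269 features), and over all of these features 0.0104% did, the 2 features *Alkal2* and *Xkr6*. At an unadjusted p under 0.05 the count of muscle genes was again 0, against 8.96% of all tested features. The groups overlapped for all 10 genes, while 1.82% of the tested features had groups that did not overlap. The median log2 difference (OUM minus naive) was -0.17 over the 10 genes, which include both genes detected on no array, and -0.09 over the 6 tested genes, against -0.02 over all features. The value of -0.17 became -0.01 without naive array 2 and 0.21 within slide 2. With this spread the intervals remain wide, and a p above the threshold does not show equal levels.

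**Figure D1:**
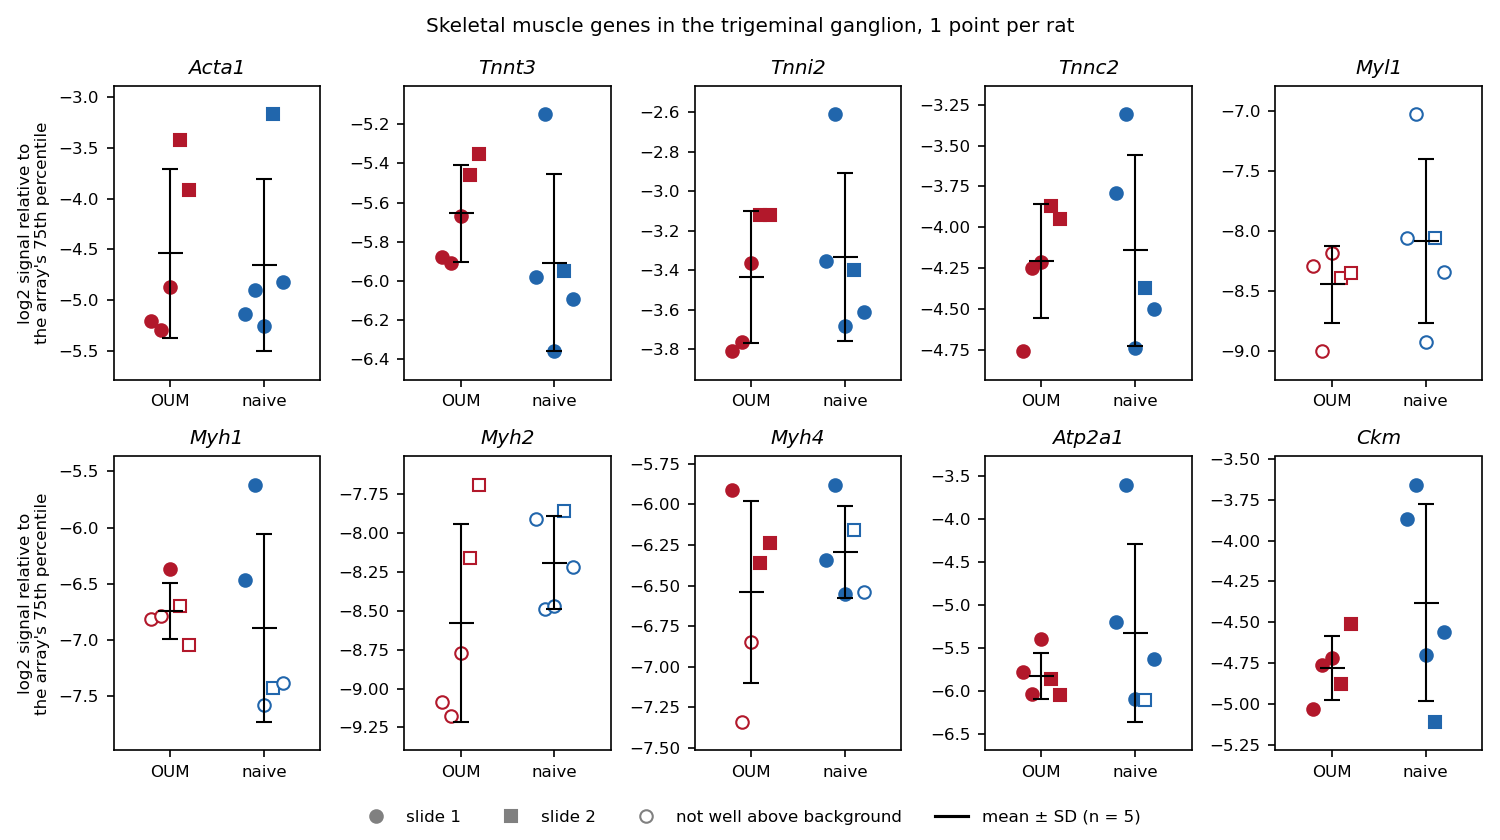
Log2 signal against the 75th percentile of the array (vertical axis, a separate range in each panel) of the 10 skeletal muscle genes in OUM and naive rats, 1 point per rat, with circles for slide 1, squares for slide 2 and open symbols where the probe was not well above background. Bars give mean and SD of the 5 rats in a group. The groups overlap in every panel, 1 naive array lies on top for 8 genes, and the 3 squares of *Acta1* lie above its 7 circles.

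Among the 10 genes, those of the thin filament were detected on all 10 arrays. *Tnni2* encodes the inhibitory subunit of fast troponin, which holds myosin off actin at rest. Its log2 signal was -3.81, -3.76, -3.36, -3.12 and -3.12 on OUM arrays 1 to 5, against -3.35, -2.61, -3.68, -3.40 and -3.61 on naive arrays 1 to 5. The highest value was on naive array 2 and the lowest were on OUM arrays 1 and 2, with the other 7 arrays of both groups mixed between them. The means were -3.44 ± 0.34 in OUM rats and -3.33 ± 0.43 in naive rats (SD, n = 5 each), a log2 difference of -0.11 (SE 0.22, 95% interval -0.59 to 0.38, limma adjusted p = 0.912). An exact permutation test over all assignments of the arrays, two-sided as all tests here, gave *Tnni2* p = 0.698, where the smallest p that 5 arrays against 5 allow is 0.00794. The sign of its difference turned without naive array 2 (0.08) and within slide 2 (0.28).

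*Tnnc2* encodes the calcium-binding subunit of fast troponin. The arrays gave it log2 signals of -4.76, -4.25, -4.21, -3.87 and -3.95 on OUM arrays 1 to 5, against -3.79, -3.31, -4.74, -4.37 and -4.50 on naive arrays 1 to 5. Naive arrays 1 and 2 exceeded every OUM array, and the other 3 naive arrays lay between OUM arrays 1 and 2. The log2 difference was -0.07 (SE 0.27, 95% interval -0.67 to 0.54, limma adjusted p = 0.959; exact permutation test, p = 0.841), with means of -4.21 ± 0.35 in OUM rats and -4.14 ± 0.58 in naive rats (SD, n = 5 each). It turned to 0.14 without naive array 2 and was 0.46 within slide 2.

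*Tnnt3* encodes the fast troponin subunit that anchors the complex to tropomyosin. The log2 signal of *Tnnt3* was -5.88, -5.91, -5.67, -5.46 and -5.35 on OUM arrays 1 to 5, against -5.98, -5.15, -6.36, -5.95 and -6.09 on naive arrays 1 to 5. Every OUM array lay above 4 of the 5 naive arrays and below naive array 2. The log2 difference was 0.25 (SE 0.21, 95% interval -0.21 to 0.72, limma adjusted p = 0.734; exact permutation test, p = 0.294), with means of -5.65 ± 0.25 in OUM rats and -5.91 ± 0.45 in naive rats (SD, n = 5 each). Without naive array 2 the difference was 0.44.

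*Acta1* encodes the alpha actin of the adult skeletal muscle thin filament. Its log2 signal was -5.20, -5.29, -4.87, -3.42 and -3.91 on OUM arrays 1 to 5, against -5.14, -4.90, -5.25, -3.17 and -4.82 on naive arrays 1 to 5. OUM arrays 4 and 5 and naive array 4 were high and the other 7 were low, so that each group held both levels. The log2 difference was 0.12 (SE 0.47, 95% interval -0.94 to 1.17, limma adjusted p = 0.959; exact permutation test, p = 0.913), with means of -4.54 ± 0.83 in OUM rats and -4.65 ± 0.85 in naive rats (SD, n = 5 each). The sign turned to -0.21 when slide entered the fit, and the value was -0.09 within slide 1 and -0.50 within slide 2.

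Among the genes of calcium handling and energy supply, *Atp2a1* encodes the calcium pump of the fast fibre's sarcoplasmic reticulum, SERCA1. Its log2 signal was -5.78, -6.04, -5.40, -5.86 and -6.05 on OUM arrays 1 to 5, against -5.20, -3.60, -6.09, -6.11 and -5.63 on naive arrays 1 to 5. Naive array 2 stood far above the other 9, which lay between -6.11 and -5.20. The means were -5.83 ± 0.27 in OUM rats and -5.32 ± 1.03 in naive rats (SD, n = 5 each), a log2 difference of -0.50 (SE 0.43, 95% interval -1.45 to 0.44, limma adjusted p = 0.746; exact permutation test, p = 0.389). Without naive array 2 the difference of *Atp2a1* was -0.07, and within slide 2 it was 0.15.

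*Ckm* encodes the muscle creatine kinase, which restores ATP from phosphocreatine. For it, the log2 signal was -5.03, -4.76, -4.72, -4.88 and -4.51 on OUM arrays 1 to 5, against -3.87, -3.66, -4.70, -5.11 and -4.56 on naive arrays 1 to 5. Naive arrays 1 and 2 were high, naive array 4 was the lowest of all, and the remaining naive arrays lay within the range of the OUM arrays. The log2 difference was -0.40 (SE 0.25, 95% interval -0.96 to 0.16, limma adjusted p = 0.664; exact permutation test, p = 0.246), with means of -4.78 ± 0.19 in OUM rats and -4.38 ± 0.60 in naive rats (SD, n = 5 each). It was -0.22 without naive array 2, -0.64 within slide 1 and 0.41 within slide 2.

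Among the 10 genes, those of the thick filament were near or below the limit of detection. Outside them, the fast regulatory light chain gene *Myl11* was well above background on all 10 arrays. *Myh1*, *Myh2* and *Myh4* encode the myosin heavy chains of type 2X, 2A and 2B fibres and lie side by side on chromosome 10 in the order *Myh2*, *Myh1*, *Myh4*, followed by the perinatal chain gene *Myh8*. The genes are close in sequence, and probe letters were not used here, so signal shared between copies cannot be told apart. The *Myh4* log2 signal was -5.91, -7.34, -6.85, -6.36 and -6.24 on OUM arrays 1 to 5, against -6.34, -5.88, -6.55, -6.16 and -6.54 on naive arrays 1 to 5. It was well above background on OUM arrays 1, 4 and 5 and naive arrays 1, 2 and 3. When every feature was tested without the condition on detection, the log2 difference of *Myh4* was -0.24 (limma adjusted p = 0.827; exact permutation test, p = 0.413). The *Myh1* log2 signal was -6.82, -6.79, -6.37, -6.70 and -7.05 on OUM arrays 1 to 5, against -6.47, -5.62, -7.58, -7.43 and -7.39 on naive arrays 1 to 5. Only OUM array 3 and naive arrays 1 and 2 were well above background, and these held the 3 highest values. The *Myh1* log2 difference was 0.16 without the condition on detection (limma adjusted p = 0.926; exact permutation test, p = 0.698), and 0.48 without naive array 2.

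The signals of *Myh2* and of *Myl1*, the fast alkali light chain gene, were not well above background on any array, so no difference is given for them. The brighter *Myh2* probe lay between -9.18 and -7.69 in OUM rats and between -8.49 and -7.86 in naive rats. The second *Myh2* probe lay between -9.32 and -7.60 over the 10 arrays. *Myl1* lay between -9.00 and -8.18 in OUM rats and between -8.92 and -7.03 in naive rats.

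**Figure D2:**
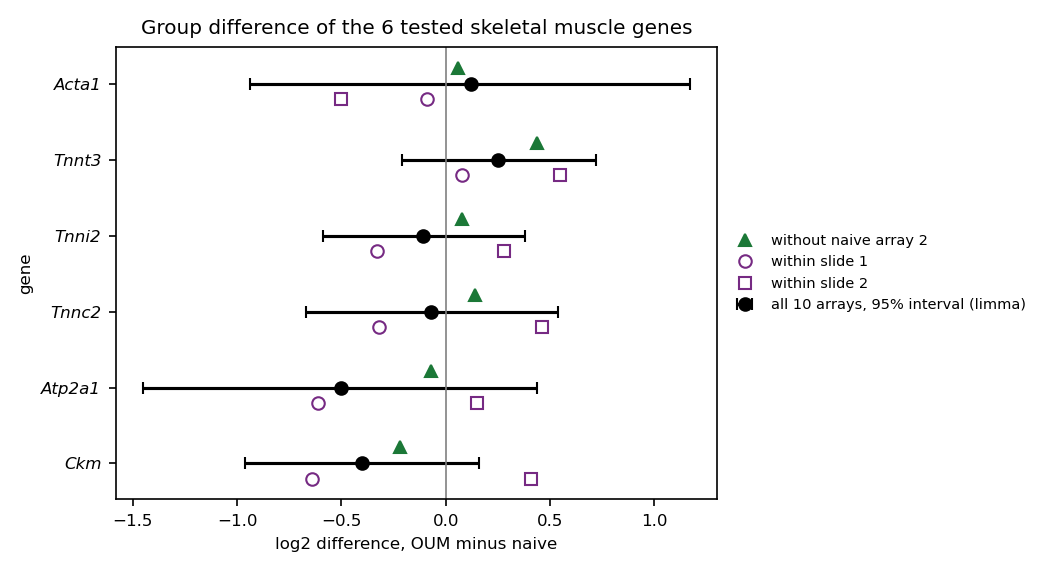
Log2 difference, OUM minus naive (horizontal axis), of the 6 tested skeletal muscle genes: black points with 95% limma intervals for all 10 arrays, triangles without naive array 2, and open circles and squares within slide 1 and slide 2. All 6 intervals include 0, and the *Atp2a1* value is -0.50 with all arrays and -0.07 without naive array 2.

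Inside the groups, the tested muscle genes varied more than most genes of the TG. The median of their within-group SD was 0.46, against 0.12 over all 19269 tested features. The pooled SD of the 6 genes stood between the 92.89th percentile of the tested features (*Tnnt3*) and the 99.03rd (*Acta1*). Among naive rats the percentiles ran between 95.6 (*Tnni2*) and 99.2 (*Atp2a1*), and among OUM rats between 71.3 (*Ckm*) and 99.3 (*Acta1*). These percentiles are over tested features of any brightness and were not matched for signal level.

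For several genes 1 naive array stood above the rest, and it was picked out here once its values had been seen. Naive array 2 held the highest of the 10 values for 8 of the 10 genes, all but *Acta1* and *Myh2*, while 8.89% of all features and 11.0% of the tested features had their highest value there. Above the mean of the other 4 naive arrays, *Tnnc2* was 2.05-fold higher on it, *Tnnt3* 1.93-fold, and *Tnni2* and *Ckm* 1.87-fold each. *Atp2a1* was 4.46-fold higher, with 1 of those 4 arrays not well above background. No fold is given for *Myh1*, *Myh4* and *Myl1*, which were not well above background on 2 or more of those arrays. *Acta1* was lower on it, at 0.81 of that mean. Without this array the SD among naive rats was 0.43 for *Atp2a1* (1.03 with it), 0.16 for *Tnni2* (0.43) and 0.18 for *Tnnt3* (0.45). It was 0.41 for *Tnnc2* (0.58) and 0.51 for *Ckm* (0.60), and 0.97 for *Acta1* (0.85), whose naive values spread as widely without it. The mean over the 10 genes, each taken relative to its own 10-array mean, was -0.26, -0.43, -0.04, 0.17 and 0.17 on OUM arrays 1 to 5, against 0.19, 0.77, -0.44, 0.04 and -0.17 on naive arrays 1 to 5. The value of 0.77 on naive array 2 stood above all others, and was 0.78 to 0.81 with quantile normalization, with scaling to the median or in the authors' value table. This mean includes *Myh1*, *Myh4* and *Myl1*, and also *Myh2*, which was well above background on no array. For that reason it is not given as a fold.

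Some other fast fibre genes also had their highest signal on this naive array. *Myl11*, the fast regulatory light chain listed as *Mylpf*, had log2 signals of -4.71, -4.75, -4.56, -5.01 and -4.56 on OUM arrays 1 to 5, against -4.31, -3.33, -4.90, -4.82 and -4.76 on naive arrays 1 to 5. On naive array 2 it was 2.59-fold above the mean of the other naive arrays. The fast alpha actinin gene *Actn3*, whose product cross-links actin at the Z-disc, was 1.50-fold higher there, and the calsarcin gene *Myoz1*, well above background on 6 of 10 arrays, also had its highest value there. With *Smpx* these were 4 of 17 measured genes in the list of other filament and Z-disc genes with their highest value on that array. The list mean on it was 0.06 above the 10-array mean. *Tpm2* and *Des* of the same list had their lowest value there, at 0.81 and 0.818 of the mean of the other naive arrays. So did *Myot*, which was not well above background on any array. Genes with their highest value on naive array 2 were 0 of 13 for excitation and calcium release and 0 of 13 for energy metabolism. They were 0 of 19 for slow and cardiac muscle and 2 of 12 (*Myh8* and the myostatin gene *Mstn*) for developing muscle. They were also 5 of 13 for ganglion neurons and 4 of 10 for housekeeping genes, whose list means on that array were 0.12 and 0.06 above the 10-array mean. For markers of other tissue, the list mean on naive array 2 was -0.11 for tendon and fascia, -0.07 for adipose tissue, 0.07 for bone and cartilage, -0.09 for meninges and fibroblasts and 0.32 for blood, each relative to its 10-array mean. The part of these tissues in the result was not tested.

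**Figure D3:**
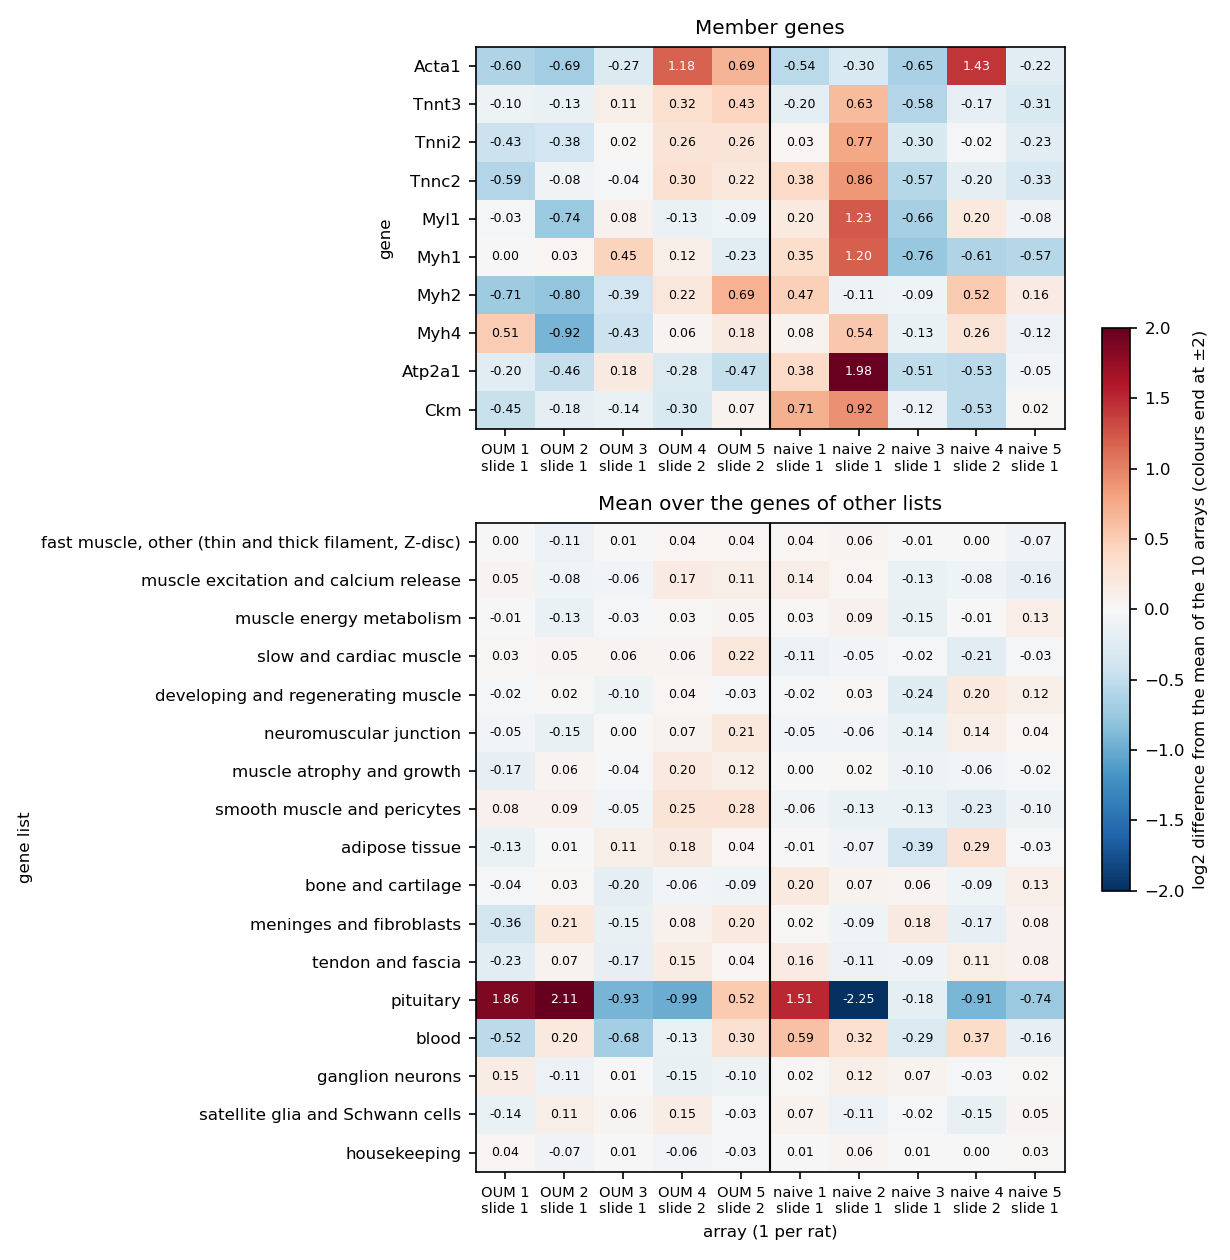
Log2 difference from the mean of the 10 arrays (colour, ending at ±2, and printed value) for the 10 skeletal muscle genes (upper panel, 1 gene per line) and for the mean over the genes of 17 other lists (lower panel), with 1 column per array, OUM arrays left of the line and naive arrays right of it. Naive array 2 has a value of 1.98 for *Atp2a1* and -2.25 for the pituitary list, and *Acta1* is high on the 3 arrays of slide 2.

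*Acta1* departed from the other muscle genes by following the slide. On slide 2 its log2 signal lay between -3.91 and -3.17, and on slide 1 between -5.29 and -4.82, without overlap. Of the tested features, 10.8% had all slide 2 arrays above all slide 1 arrays. The slide comparison was made after the values had been seen, so p values for the slide, here and below, are not independent evidence. In a fit with slide and group as terms, the *Acta1* difference (slide 2 minus slide 1) was 1.62 (SE 0.15, 3.07-fold, limma adjusted p = 0.000138). An exact permutation test over 120 assignments gave p = 0.00833, the smallest it can give. That value follows from the lack of overlap and adds nothing to it. Over all tested features, 13.0% passed an adjusted p of 0.05 in the same limma fit in either direction and 10.1% as higher on slide 2. A slide difference as such was therefore common on these arrays. The other 5 tested muscle genes had limma adjusted p of 0.509 to 0.766 for the slide, with *Tnni2* at 0.28 and *Atp2a1* at -0.52.

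Both other alpha actin genes measured had the same direction by slide. *Acta2*, the smooth muscle alpha actin, had a log2 difference of 0.54 (slide 2 minus slide 1, SE 0.07, limma adjusted p = 0.000579), with values of -2.60 to -2.36 on slide 2 and -3.22 to -2.86 on slide 1. *Actc1*, the cardiac alpha actin, had one of 0.27 (SE 0.06, limma adjusted p = 0.0157), with values of -0.30 to -0.13 on slide 2 and -0.62 to -0.38 on slide 1. Alpha actins are near-identical in coding sequence, so signal shared between their probes cannot be told apart here. Further muscle genes higher on slide 2 included the receptor genes *Chrna1* (0.36, limma adjusted p = 0.0203) and *Chrnb1* (0.23, limma adjusted p = 0.0152) and *Dok7* (0.53, limma adjusted p = 0.000315), which makes 3 of 6 tested genes of the neuromuscular junction. In the list of other filament and Z-disc genes the count was 0 of 12, and the oxygen-binding protein gene *Mb* was the 1 of 12 in energy metabolism (0.47, limma adjusted p = 0.00577). It was 1 of 6 for excitation and calcium release, 1 of 14 for slow and cardiac muscle and 2 of 9 for developing muscle. For atrophy and growth 1 of 6 was higher on slide 2 and 1 was lower. Over all tested features 10.1% were higher on slide 2. What else differed between the slides is not given in the sources used here.

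**Figure D4:**
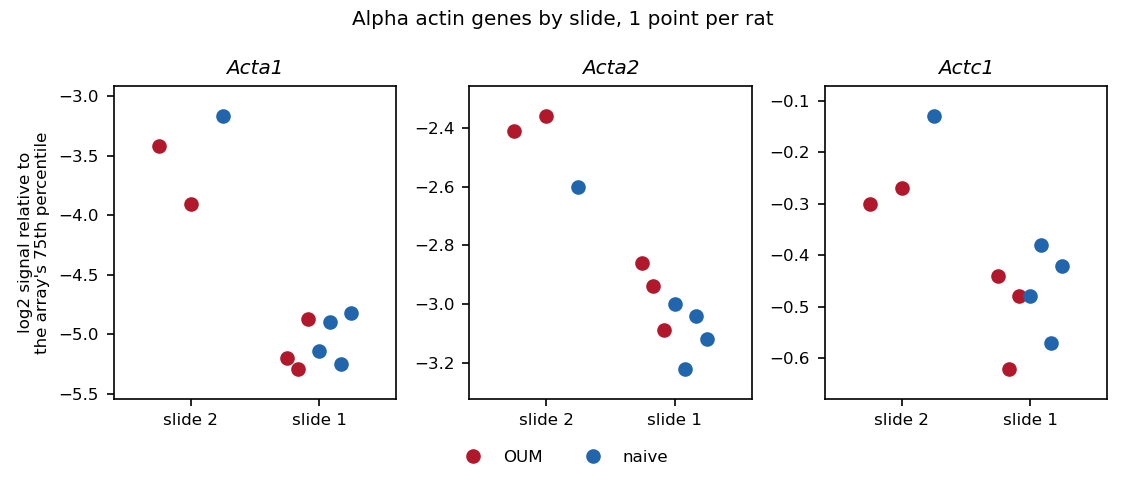
Log2 signal against the 75th percentile of the array (vertical axis, a separate range in each panel) of 3 alpha actin genes on slide 2 and slide 1, 1 point per rat, coloured by group. The 3 arrays of slide 2 lie above the 7 of slide 1 for each gene, by 1.62 for *Acta1*, 0.54 for *Acta2* and 0.27 for *Actc1* in the fit. The same order held for 10.8% of the tested features.

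The remaining muscle lists did not separate the groups either, with 0 genes of any list past an adjusted p of 0.05 (limma). Of 12 tested other filament and Z-disc genes, 2 were higher at an unadjusted p under 0.05, where 3.77% of all tested features were. They were *Tpm2*, a tropomyosin also made by smooth muscle, with a log2 difference of 0.26 (SE 0.11, limma adjusted p = 0.523), and *Des*, the muscle intermediate filament desmin, with one of 0.21 (SE 0.08, limma adjusted p = 0.505). The largest difference in this list was that of *Myl11*, at -0.29 (SE 0.27, limma adjusted p = 0.770), and it was -0.02 without naive array 2. Of 12 tested energy genes 1 was lower at that threshold, where 5.19% of all features were: the fatty acid carrier gene *Fabp3* at -0.20 (SE 0.06, limma adjusted p = 0.460). *Ckmt2*, the sarcomeric mitochondrial creatine kinase, differed by -0.44 (SE 0.29), and of the muscle subunits of cytochrome oxidase *Cox8b* differed by -0.25 (SE 0.21) and *Cox6a2* by 0.25 (SE 0.13). None of the 6 tested genes of excitation and calcium release passed an unadjusted p under 0.05 in limma, and 0 passed the adjusted one. *Sln*, the sarcolipin gene, was well above background on 5 OUM and 2 naive arrays, so that it was tested through the OUM group alone. *Sln* differed by 0.14 (SE 0.16), and *Tmem38a*, a cation channel gene of the sarcoplasmic reticulum, by -0.07 (SE 0.11). Among genes of developing muscle, again 0 of 9 tested by either threshold, *Myh8* differed by -0.22 (SE 0.24) and the myogenin gene *Myog* by 0.12 (SE 0.24). In the list of the neuromuscular junction *Chrnb1* was the 1 of 6 higher at an unadjusted p under 0.05 (0.19, SE 0.08, limma adjusted p = 0.523). *Chrnb1*, also higher on slide 2, differed by 0.15 with slide as a term, 0.17 within slide 1 and 0.10 within slide 2. *Dok7* differed by 0.08 (SE 0.16). Slow and cardiac muscle had 2 of 14 tested genes higher at an unadjusted p under 0.05, against 3.77% of all tested features. These were *Csrp3* and *Pln*, both described below. In the list of atrophy and growth 0 of 6 passed either threshold. There *Fbxo32*, the ubiquitin ligase subunit atrogin, differed by -0.10 (SE 0.15), and *Klhl41*, a sarcomere assembly factor, by 0.22 (SE 0.14). *Klhl41* was well above background on 5 OUM arrays and 1 naive array, so that it too was tested through the OUM group alone.

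The smooth muscle list had a median log2 difference of 0.23 over 11 measured genes, against -0.02 over all features. Of its 7 genes well above background on all 10 arrays, 2 were higher at an unadjusted p under 0.05, where 3.77% of all tested features were. *Pln*, the inhibitor of the calcium pump in slow, cardiac and smooth muscle, had a log2 difference of 0.31 (SE 0.14, limma adjusted p = 0.540), and *Myh11*, the smooth muscle myosin heavy chain, one of 0.23 (SE 0.09, limma adjusted p = 0.505). *Lmod1*, an actin nucleator of smooth muscle, was well above background on 5 OUM and 3 naive arrays, so that it was tested through the OUM group alone, with a difference of 0.39 (SE 0.14, limma adjusted p = 0.496). Each missed the adjusted threshold.

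*Csrp3*, the muscle LIM protein gene of slow and cardiac fibres, differed from the filament genes in its values by array. It was well above background on 5 OUM and 4 naive arrays, so that it met the condition for testing through the OUM group alone. The study named it on these samples, so its direction is not independent evidence. The log2 signal of *Csrp3* was -5.30, -4.25, -4.14, -4.15 and -4.43 on OUM arrays 1 to 5, against -6.02, -5.76, -4.49, -6.48 and -5.64 on naive arrays 1 to 5. OUM arrays 2 to 5 lay above every naive array, while OUM array 1 lay below naive array 3. The log2 difference was 1.22 (SE 0.35, 95% interval 0.44 to 2.00, limma adjusted p = 0.460; exact permutation test, p = 0.0159), 0.91 within slide 1, 2.19 within slide 2 and 1.20 without naive array 2. On naive array 2, where 8 of the 10 muscle genes had their highest value, *Csrp3* ranked 8 of 10. *Ankrd1*, a cardiac ankyrin repeat gene, was well above background on 3 OUM and 2 naive arrays, with log2 signals of -6.50, -6.81, -6.44, -6.04 and -5.83 on OUM arrays 1 to 5, against -7.70, -6.92, -6.64, -6.82 and -6.99 on naive arrays 1 to 5. *Ankrd1* was not tested in the main comparison and was picked out after its values had been seen, so its direction is not independent evidence. Without the condition on detection its log2 difference was 0.69 (limma adjusted p = 0.690).

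The genes whose signal kept the most constant distance to the mean of the 10 muscle genes were sought among 12219 features with a symbol that were well above background on at least 3 arrays. The SD over the 10 arrays of gene minus muscle mean was smallest for *Emilin3*, an extracellular glycoprotein gene, at 0.18, followed by *Myoz1* at 0.20 and by *Sfrp1*, *Sgcz* and *Arl5b* at 0.22 each. *Kcne5*, *Ccdc60* and *C19h4orf51* followed at 0.23 each, then *Or2y1i* and *Ttk* at 0.24 each. The SD of the muscle mean itself was 0.36, and the median of this measure over the candidates was 0.38. Of the 10, *Myoz1* was in a muscle list.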

How the data were processed

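TG RNA of 5 OUM and 5 naive rats was hybridised to Agilent arrays, and per the file headers Feature Extraction 10.7.1.1 gave each spot a processed signal, an intensity after background subtraction. The authors normalized with GeneSpring GX and used a Welch test. Their deposited table holds this intensity on a linear scale, divided by a constant per array (column medians 0.114 to 0.120), and served as an alternative. The other deposited columns used, marks for outliers, saturation and signal well above background, are flags without a unit, as the authors' software set them.

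From the scanner files, control spots and 267 to 334 outlier spots per array were left out, spots of a probe were averaged, and log2 signal was taken relative to the array's 75th percentile. A probe counted as well above background when all its kept spots were. Accessions gave 18438 probes 1 symbol through RefSeq's GRCr8 table and left 11929 without one. The array design follows another build, so GRCr8 coordinates are given for promoters alone. A gene was represented by its brightest probe on average. Features detected on every array of at least 1 group, 19269 in all, were compared with limma 3.58.1 in R 4.3.3 (lmFit and eBayes, two-sided, Benjamini-Hochberg adjustment, threshold 0.05). Python 3 with pandas and numpy made the tables. The limma step was tested on simulated data. The number of arrays limits the precision.

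The members, lists and tests were chosen with earlier results of these data known. Named are all members, the 2 largest differences among the tested genes of each muscle list (with *Cox6a2*, which ties) and those at an unadjusted p under 0.05, *Csrp3*, and the 10 genes most like the member mean. *Myl11*, *Actn3*, *Myoz1*, *Smpx*, *Mstn*, *Myh8*, *Acta2*, *Actc1*, *Ankrd1*, *Chrna1*, *Dok7* and *Mb*, where named by array or slide, were chosen after their values were seen, as were the slide comparison and the counts on naive array 2. The same holds for *Tpm2*, *Des* and *Myot* where named on naive array 2. Alternatives were other normalizations, scalings and background corrections, the authors' table, other detection filters, other uses of probes and outlier spots, the slide and the replicate number as blocks, each slide alone, the methods' t-test, another prior, and each array left out.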

Additional observations from a re-analysis of the deposited data

Results flagged for a closer look

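In 22 groups of 5 arrays (the 10 muscle genes and *Csrp3*, each in both groups), 3 had 1 array far from the others, and chance gives about 1 in 20 groups. *Acta1* was -3.17 on naive array 4, the naive array of slide 2, against -5.25 to -4.82 on the other naive arrays. *Myl1*, not well above background on any array, was -9.00 on OUM array 2, against -8.39 to -8.18 on the other OUM arrays. *Csrp3* was -5.30 on OUM array 1, against -4.43 to -4.14 on the other OUM arrays. None of the 3 is on naive array 2.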

How the results depend on the processing

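Under the 24 alternatives, 0 skeletal muscle genes passed the adjusted threshold of 0.05. Over all features the count of 2 became 0 with quantile normalization, scaling to the median, the mean of probes, no filter on dim probes, the replicate block and the methods' t-test, 1 with an intensity trend and robust prior, and 337 within slide 2, where 2 OUM arrays met 1 naive array, assumed to vary like the OUM pair. It was 0 to 1 with an array left out. The causes were not tested. The median log2 difference of the 10 genes was 0.21 within slide 2, -0.35 within slide 1, and -0.26 to -0.01 with an array left out.

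The sign turned for *Acta1* with slide as a term (-0.21) and within each slide (-0.09 on slide 1, -0.50 on slide 2), and on slide 2 alone also for *Tnni2* (0.28), *Tnnc2* (0.46), *Ckm* (0.41) and *Atp2a1* (0.15). With an array left out, *Acta1* lay between -0.16 and 0.49, *Tnni2* between -0.19 and 0.08 (0.08 without naive array 2), and *Tnnc2* between -0.22 and 0.14 (0.14 without naive array 2). *Tnnt3* stayed between 0.07 and 0.55 over all alternatives.

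Replicate numbers did not pair the arrays: same-numbered arrays correlated at -0.10 to 0.34 in their deviations, and 1 of 5 numbers matched itself best. Signals near background limit *Myh1*, *Myh2*, *Myh4* and *Myl1*.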
